A study of Mus musculus with 6 samples.

Results

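Olfactory receptors (ORs) numbered Olfr763 to Olfr829 were described in single olfactory sensory neurons (OSNs) of the mouse. Members were all genes named Olfr763 to Olfr829 without a suffix, which gave 61 of the 1116 OR genes named in this way among 24564 genes. Of these, 58 lay in 1 stretch of chromosome 10 and 2, Olfr828 and Olfr829, on chromosome 9. Olfr766 matched no entry of the annotation by its name, and Olfr766-ps1, which lies in that stretch, was not taken as the same gene. Olfr764 was placed as Olfr764-ps1, a pseudogene in RefSeq, and Olfr779 is annotated as a polymorphic pseudogene.

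ORs are G protein-coupled receptors that bind odorants. Each mature OSN transcribes 1 OR allele at a high level, and its axon joins those of other OSNs with the same OR in the olfactory bulb. The choice of OR is biased by where the neuron sits along the dorsoventral axis of the main olfactory epithelium, which is divided into zones. The silent OR genes carry H3K9me3, a mark that is read by heterochromatin protein 1 (HP1), of which HP1β is encoded by *Cbx1* and HP1α by *Cbx5*.

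The samples were 6 single-cell RNA-seq libraries of papain-dissociated main olfactory epithelium. The 2 swap libraries came from mice labelled Cbx*/* with a Cre recombinase active in neuronal lineages, in which recombination puts *Cbx5* in place of *Cbx1* behind the *Cbx1* promoter. The 2 control libraries differed in their labels, since control replicate 1 was wild type at Cbx with Cre and control replicate 2 was Cbx*/* without Cre. The tetOP2 library was labelled with gg8-tTA and tetOP2iresGFP. In this genotype a tetracycline transactivator expressed in immature OSNs drives a transgene of the P2 receptor (Olfr17). The gg8tTA library was labelled with the transactivator alone. Each group other than swap and control had 1 library, and the ages of the mice were not given in the labels. The labels do not state how many animals each library held, so p-values measure only the spread between these libraries.

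Libraries held 32005196 to 63277934 unique molecular identifiers (UMIs, counted RNA molecules). Mature OSNs were gated as cells holding 10 *Omp* UMIs or more, with *Omp* above *Gap43*, which gave 680 to 1309 cells per library with a median of 11302.5 to 12934 UMIs. *Cbx1* stood at 1.32 and 3.002 CPM (counts scaled to the library total) in the mature OSNs of the swap libraries and at 34.2 to 142.3 CPM in the other 4. *Cbx5* stood at 79.4 and 99.4 CPM in swap and at 13.9 to 41.1 CPM in the others. *Xist*, the RNA of the inactive X chromosome, was at 1212 CPM in swap replicate 1 and at 1423 and 1352 CPM in the tetOP2 and gg8tTA libraries, and at most 0.0682 CPM in the other 3, so that the sexes of the mice were not balanced between swap and control. Summed markers of sustentacular cells, the supporting cells of the epithelium, ranged from 59.2 CPM (control replicate 1) to 3544 CPM (control replicate 2) in the mature OSNs. Any 2 libraries shared at most 20 cell barcodes.

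The cluster on chromosome 10 (mm10, chr10:129010791-130214403) spanned 1.20 Mb, with 27 of its 58 members on the plus strand. Coding sequences of 60 members, taken from GENCODE, gave 1770 pairs with a median nucleotide identity of 65.9% and a range of 51.9% to 99.2%. There were 9 pairs with at least 95% identity, whose reads the counting may split or discard: Olfr772 with Olfr773 (99.2%), Olfr823 with Olfr824 (98.7%), Olfr765 with Olfr767 (98.2%), Olfr779 with Olfr782 (97.5%), Olfr777 with Olfr800 (96.8%), Olfr782 with Olfr804 (96.7%), Olfr775 with Olfr776 (96.0%), Olfr814 with Olfr815 (95.9%) and Olfr792 with Olfr798 (95.1%). Values of these genes are therefore uncertain. Untranslated regions, where reads may also fall, were not compared. In the annotation used here Olfr773 and Olfr779 have no untranslated regions, and whether this lowers their counts was not tested. The pair Olfr772 and Olfr773 is shown because Olfr772 was chosen by 11 cells and Olfr773 by none. The stretch covers coding bases 698 to 817 of 933 in each, on the coding strand, and holds 4 of the 7 bases that differ over the whole coding sequence, in capitals.
Olfr772: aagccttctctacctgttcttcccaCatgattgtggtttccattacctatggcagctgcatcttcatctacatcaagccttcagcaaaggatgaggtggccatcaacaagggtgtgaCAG
Olfr773: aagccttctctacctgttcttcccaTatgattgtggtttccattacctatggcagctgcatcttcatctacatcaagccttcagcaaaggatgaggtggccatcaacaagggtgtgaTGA

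Members were chosen more often in swap than in control OSNs. The chosen OR of a cell was the OR gene with the most UMIs, at least 3. Of 653 and 953 mature OSNs with a chosen OR in swap replicates 1 and 2, 62 and 108 chose a member, which is 9.49% (exact binomial 95% interval 7.36 to 12.01) and 11.3% (9.39 to 13.5). Of 955 and 1180 such cells in control replicates 1 and 2, 49 and 62 chose a member, which is 5.13% (3.82 to 6.73) and 5.25% (4.05 to 6.69). Both swap libraries lay above both control libraries, and the intervals, which cover counting error only, did not overlap between the groups.
The mean share was 10.4% ± 1.30 in swap and 5.19% ± 0.0872 in control (SD, n = 2 each), a difference of 5.22 percentage points and a ratio of 2.005. The exact two-sided permutation test of 2 against 2 libraries gave p = 0.3333, the smallest value it can give. With 1 library left out at a time the difference was 4.30 to 6.14 points, the largest without swap replicate 1. Swap replicate 1 was the only one of the 4 libraries with high *Xist*, and an effect of sex was not tested. With cells that chose Olfr17 left out, members took a mean of 10.43% of swap and 5.217% of control cells. Over those cells Olfr543 to Olfr692 (118 genes) took 11.1% and 10.2%, Olfr832 to Olfr986 (110 genes) 5.47% and 5.96%, and Olfr987 to Olfr1262 (199 genes) 11.0% and 16.9%.

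The same order was seen in cells that were not yet mature. Among cells with at least 10 *Gap43* UMIs and no more *Omp* than *Gap43*, members took 9.49% and 8.81% of the swap cells with a chosen OR and 4.66% and 3.70% of the control cells. The groups did not overlap, with a difference of 4.97 points (exact permutation p = 0.3333). Members supplied 8.04% and 11.6% of all OR UMIs of mature OSNs in swap and 5.25% and 5.16% in control, a difference of 4.60 points (exact permutation p = 0.3333).

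In the gg8tTA library 44 of 599 cells chose a member, which is 7.35% (5.39 to 9.74), and in the tetOP2 library 16 of 645, which is 2.48% (1.42 to 3.997). The gg8tTA share lay above those of both control libraries and below those of both swap libraries. Its interval overlapped that of each swap and of each control library. In the tetOP2 library 379 cells chose Olfr17, the OR of the transgene. With the cells that chose Olfr17 left out, the tetOP2 share was 16 of 266 cells, which is 6.02% (3.48 to 9.58), against 7.36% (5.40 to 9.75) in gg8tTA, and these intervals overlapped. The 379 cells that chose Olfr17 held 16 member UMIs in all, in 16 of the cells. With 1 library per group there is no test of tetOP2 against gg8tTA.

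**Figure D1:**
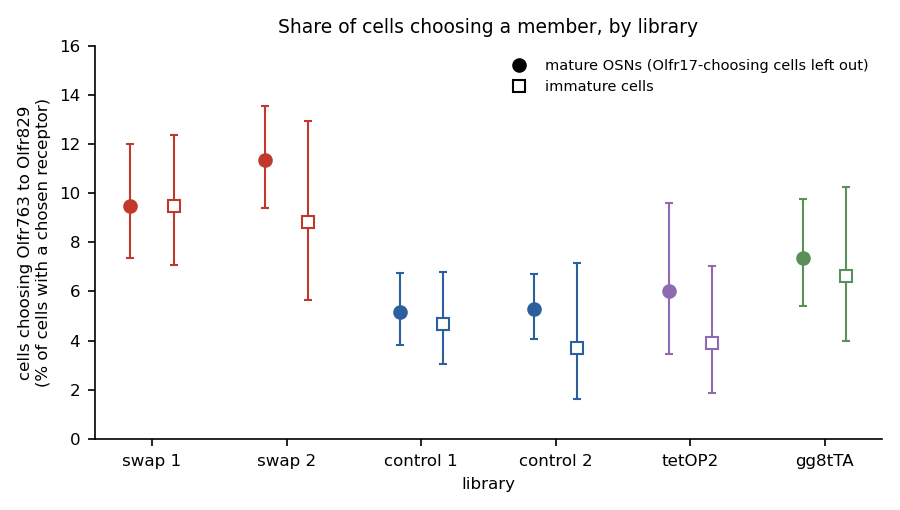
Share of cells with a chosen OR that chose Olfr763 to Olfr829 (y axis, %) in each library (x axis), for mature OSNs (filled circles, cells that chose Olfr17 left out) and immature cells (open squares), with exact binomial 95% intervals as bars. Both swap libraries lie above the 2 control libraries in mature and in immature cells, and the tetOP2 and gg8tTA libraries lie below the swap libraries. The gg8tTA library lies above the 2 control libraries, with intervals that overlap those of the swap and control libraries.

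Choice was spread over most of the members. Over the 6 libraries 341 mature OSNs chose a member, and 55 of the 61 members were chosen by at least 1 cell. No cell chose Olfr765, Olfr773, Olfr779, Olfr781, Olfr789 or Olfr811. The 5 most chosen members held 28.7% of the cells, and 2 members were chosen in all 6 libraries. Between the pooled swap and control libraries, 27 members had more choosing cells in swap, 23 had fewer and 11 had equal numbers. Of these 11, 6 had no choosing cell in either group. In all there were 170 swap and 111 control cells. These counts were not scaled to the cells with a chosen OR (653 and 953 in swap, 955 and 1180 in control). Scaled to them, the log2 fold change by edgeR was positive in 32 of 55 members and in 362 of 861 OR genes with a choosing cell. At an equal number of 49 member-choosing cells, 23.6 and 25.0 different members were expected in swap and 28.0 and 32.8 in control, so that the swap cells fell on fewer members (difference −6.11, exact permutation p = 0.3333).

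The most chosen member was Olfr769, an OR on the minus strand near the start of the cluster (chr10:129108952-129117861). It was chosen by 5 and 13 cells in swap, by 1 and 3 in control and by none in tetOP2 and gg8tTA. Olfr821, near the other end (chr10:130030348-130035071, plus strand), followed the same order, with 5 and 9 cells in swap, 1 and 3 in control, 0 in tetOP2 and 1 in gg8tTA. For both receptors each swap library held more choosing cells than either control library.
Olfr813 was chosen by 6 and 6 swap cells, 4 and 2 control cells and 3 gg8tTA cells. Olfr827, the last gene of the cluster, was chosen by 4 and 5 swap cells, 3 and 2 control cells, 2 tetOP2 and 5 gg8tTA cells. Olfr812 was chosen by 4 and 5 swap and by 2 and 1 control cells. These 3 receptors also had no overlap between swap and control. The members named here were picked for the most choosing cells over all libraries, swap included, which favours receptors high in swap. Overlap in choosing cells was not counted over all OR genes.
Olfr820 overlapped, with 1 and 5 swap and 2 and 2 control cells. So did Olfr810, with 5 and 1 against 3 and 2. Olfr772 and Olfr780 each had 2 and 5 swap and 0 and 2 control cells, and Olfr825 had 2 and 3 against 1 and 2. In these 3 the number of cells in swap replicate 1 equalled that in control replicate 2. Swap replicate 1 held 653 cells with a chosen OR and control replicate 2 held 1180, so that as shares the groups did not overlap.
Of the 5 members chosen by 8 cells, Olfr804 had 1 and 5 swap cells and no control cell, Olfr800 had 0 and 4 against 0 and 2, Olfr791 had 0 and 4 against 2 and 1, and Olfr818 had 1 and 4 against 1 and 2. Olfr796 went the other way, with no swap cell, 3 and 2 control cells, 1 tetOP2 cell and 2 gg8tTA cells.

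A test of choosing cells per receptor in swap against control was run by edgeR over 387 OR genes with at least 4 choosing cells, 28 of them members. A call needed an adjusted p below 0.05 and a size above 0.58 on the log2 scale. No member was called, and 0% of the OR genes were called in either direction. At an unadjusted p below 0.05, 7 members were higher and 0 lower, against 28 and 17 of all 387. The 7 were Olfr766, Olfr769, Olfr771, Olfr782, Olfr804, Olfr821 and Olfr822. Except for Olfr769 and Olfr821 they had no choosing cell in control, so they met the limit of 4 cells through swap alone. This count is therefore no separate support for a higher choice in swap. DESeq2 on the same numbers called no OR gene, and no member had an unadjusted p below 0.05. The fitted log2 fold change was positive in 22 of 28 members, with a median of 1.24, against a median of 0.33 over all 387. The 22 include the members that entered through swap cells alone, and Olfr776 and Olfr796 entered through control cells alone.
Olfr769 had a log2 fold change of 2.48 ± 0.69 (SE) and an adjusted p of 0.0511 by edgeR, just outside the threshold. It passed with genes of at least 8 choosing cells (adjusted p = 0.0178), with *Omp* at 3 UMIs or more (0.0365), with the replicate number as a block (0.0452) and without swap replicate 1 (0.0193), all by edgeR. It did not pass by edgeR with at least 1 choosing cell (0.1138), with the chosen receptor at 10 UMIs or more (0.0917) or without swap replicate 2 (0.5329), control replicate 1 (0.2097) or control replicate 2 (0.1962), nor by DESeq2 (0.9895). Olfr821 had a log2 fold change of 2.14 ± 0.83 (SE) and an adjusted p of 0.279 by edgeR.

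UMIs per gene, summed over all mature OSNs of a library, were tested for 13333 genes, among them 572 OR genes and 39 members. In such sums more choosing cells and more receptor RNA per cell cannot be told apart. By edgeR 0 members and 0% of OR genes or of all genes were called in either direction. At an unadjusted p below 0.05, 9 members were higher and 3 lower in swap, against 49 and 122 of the 572 OR genes. By DESeq2 6 members were called higher (Olfr766, Olfr769, Olfr771, Olfr804, Olfr807 and Olfr822) and 2 lower (Olfr796 and Olfr801). Of OR genes 6.29% were called higher and 19.6% lower (0.45% and 0.923% of all genes). All called members but Olfr769 had no UMI in the other group, so they passed the low-count filter only through the group where they were high. Their calls are therefore no separate support for a difference between the groups. The median log2 fold change by edgeR was 0.57 over the 39 members, −0.22 over the 572 OR genes and −0.00 over all genes tested. Both swap libraries lay above both control libraries in CPM for 14 of the 39 members (35.9%) and below for 4 (10.3%), against 18.7% and 27.6% of OR genes. The called members without a UMI in the other group are among these, and among those at an unadjusted p below 0.05. The same filter applied to all OR genes.

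In UMIs Olfr769 reached 263 and 1239 in swap and 55 and 274 in control, a log2 fold change of 2.59 ± 0.79 (SE) with an adjusted p of 1 by edgeR. Swap replicate 2 held most of its UMIs. Olfr821 had 158 and 719 UMIs in swap and 41 and 168 in control, with a log2 fold change of 2.44.
Between swap and control, several receptors had UMIs in 1 of the groups alone, in both directions. Those called by DESeq2 are given first, with Olfr782. Olfr804 had 159 and 825 UMIs in swap and none in control, at least 439-fold higher when control is set at a floor of 3 counts over the group. Its near-identical copy Olfr782 had 1 and 709 UMIs in swap and none in control. By the same floor Olfr771 (90 and 259 UMIs in swap) was at least 155.7-fold higher, Olfr766 (139 and 197) at least 149.9-fold, Olfr822 (133 and 57) at least 84.8-fold and Olfr807 (45 and 96) at least 62.9-fold. Olfr801 had 295 and 322 UMIs in control and none in swap, at least 153.7-fold lower, and Olfr796 had 147 and 125 in control and none in swap, at least 67.7-fold lower. In tetOP2 and gg8tTA there were 56 and 56 UMIs of Olfr804, 68 and 98 of Olfr766, 62 and 100 of Olfr796 and 1 and 97 of Olfr801, and at most 1 of the other 4. Further members with UMIs in control alone were Olfr767, Olfr774, Olfr785, Olfr790, Olfr803, Olfr805, Olfr814, Olfr815 and Olfr816, with 4 (Olfr774) to 181 UMIs (Olfr816). Further members with UMIs in swap alone were Olfr768 (72 UMIs) and Olfr781 (1 UMI). Receptors with UMIs in 1 group alone were not counted over all OR genes. All these receptors were chosen by 8 cells or fewer each over the 6 libraries, so that each value rests on few neurons.

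Cells that chose a member differed from other OSNs of the same library in genes other than ORs. *Cd36*, which encodes a fatty acid scavenger receptor, and *Tshz1*, which encodes a zinc finger transcription factor, were among the genes higher in member-choosing cells, and *Nrp1*, which encodes a semaphorin receptor of growing axons, and *Avp*, the vasopressin gene, among those lower. UMIs were summed per library over the 2 kinds of cells and compared with library as a block, leaving out cells that chose Olfr17. Of 9915 genes tested by edgeR, 164 (1.65%) were called higher and 196 (1.98%) lower in member-choosing cells.
*Cd36* stood at 289.5 and 601.6 CPM in member-choosing cells of the swap libraries, 299.1 and 614.8 in control, 65.6 in tetOP2 and 336.4 in gg8tTA. In the other cells it stood at 25.1, 67.5, 20.5, 87.7, 42.4 and 36.8 CPM in the same order. The level was higher in member-choosing cells in 6 of 6 libraries, least so in tetOP2 with its 16 member-choosing cells, with a log2 fold change of 3.17 ± 0.17 (SE) and an adjusted p of 1.11e-09 by edgeR.
*Tshz1* ranged from 417.2 to 1848 CPM in member-choosing cells and from 116 to 197.5 CPM in the other cells, without overlap (log2 fold change 2.79 ± 0.12 SE).

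The remaining genes with the smallest adjusted p were higher or lower in 6 of 6 libraries, and the 2 kinds of cells did not overlap across libraries. Higher in member-choosing cells were *Klkb1*, which encodes plasma prekallikrein (log2 fold change 3.10 ± 0.21 SE), *Mboat1*, a lysophospholipid acyltransferase gene (2.44 ± 0.13), *Tppp3*, a tubulin-binding protein gene (2.21 ± 0.10), *Zadh2*, an oxidoreductase gene (2.17 ± 0.15), *Cd55*, which encodes an inhibitor of complement (2.14 ± 0.09), and *Olig1*, a transcription factor gene (1.59 ± 0.09). *Nrp1* fell by 3.07 on the log2 scale (SE 0.17), *Cidea*, a lipid droplet protein gene, by 2.67 (SE 0.13), the α-tubulin gene *Tuba4a* by 2.18 (SE 0.11) and the mesothelin-like gene *Mslnl* by 2.00 (SE 0.10). *Cadps2*, a vesicle priming gene, fell by 1.86, *Efr3b* by 1.25 and the selenoprotein gene *Selm* by 0.96. *Avp* had 0 UMIs in member-choosing cells and 5331 in the others, at least 147.3-fold lower at a floor of 3 counts over the group. All 16 genes named here were called in the same direction under all 11 alternative settings.

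**Figure D2:**
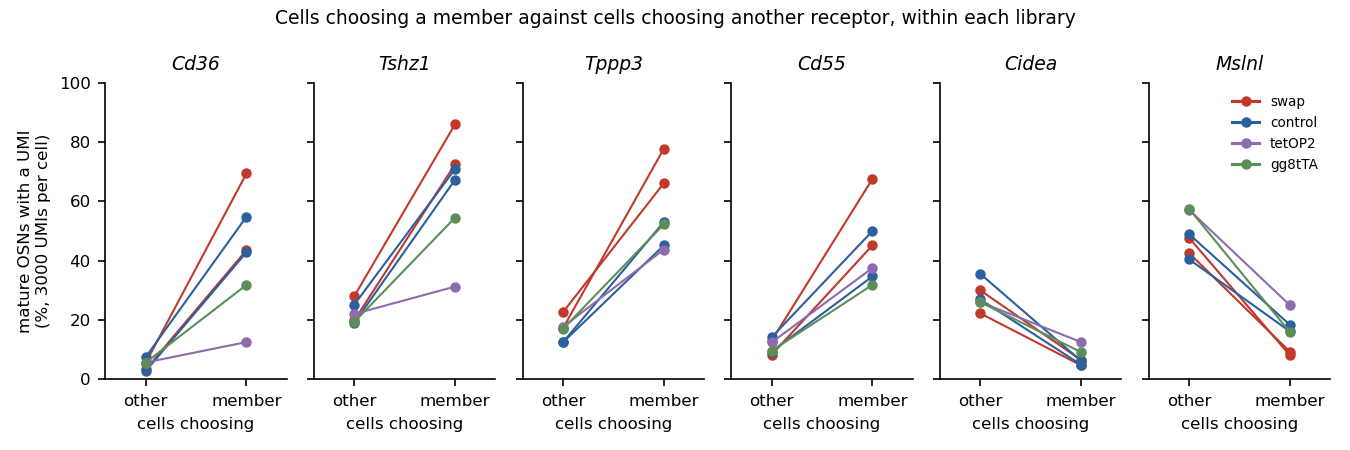
Percent of mature OSNs with at least 1 UMI of each gene after thinning to 3000 UMIs per cell (y axis), in cells that chose another receptor and cells that chose a member (x axis), with 1 line per library coloured by group. The lines of *Cd36*, *Tshz1*, *Tppp3* and *Cd55* rise and those of *Cidea* and *Mslnl* fall in each library.

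Of the position markers, several ventral genes were lower in member-choosing cells. Of the 4 dorsal genes used for the position score 0 were called, with *Nqo1* at a log2 difference of 0.10 and *Acsm4* at −0.16. Of the 5 ventral genes used, *Nrp2* (−1.50) and *Ncam2* (−0.96), which encode a semaphorin receptor and a cell adhesion molecule, were called lower and *Nfia*, *Nfib* and *Nfix* were not called. Of 3 further genes listed as dorsal *Cd55* was called higher. It was found in 5 of 21 Olfr813 cells, where 17 held *Nqo1*, and in 9 of 11 Olfr772 cells, where none did. Olfr820 cells, none with *Nqo1*, held it in 3 of 15. Whether *Cd55* marks position in these cells was not tested. Of 6 further ventral genes *Cidea*, *Rprm* (−2.97), *Pcp4l1* (−1.37), *Ifi27* (−0.80) and *Avp* were called lower and *Pdlim1* (−0.46) was not. The call of *Ifi27* held in 8 of 11 alternative settings (adjusted p by edgeR or DESeq2 up to 0.0921). These lists had median log2 differences of 0.15, −0.12, 0.24 and −2.02 in this order, against −0.01 over all genes tested.
Of 13 olfactory signalling genes *Ano2*, a chloride channel gene (−0.89), *Adcy3*, the adenylyl cyclase of odorant signalling (−0.66), and *Stoml3* (−0.62; called in 9 of 11 alternative settings) were called lower and none higher, and the summed level of the list was lower in member-choosing cells in 6 of 6 libraries. Of 14 genes tied to receptor choice, among them *Lhx2*, *Ldb1*, *Ebf1* and *Cbx1*, 0 were called by edgeR. Of 3 immature OSN markers *Gng8* was called higher (1.01), with a higher level in 4 of 6 libraries, and *Gap43* lower (−0.83), with a lower level in 6 of 6.
Markers of sustentacular cells moved with the comparison in some libraries. Of the 4 genes of that list *Cyp1a2*, *Ermn* and *Sec14l3* were called higher in member-choosing cells, and its summed level was higher there in 3 of 6 libraries, at most 8608 against 3129 CPM in control replicate 2. In swap replicate 2, control replicate 1 and gg8tTA it was lower in member-choosing cells, at 2789 against 3220, 33.8 against 67.0 and 163.7 against 255.1 CPM. In these libraries *Cd36* was 601.6 against 67.5, 299.1 against 20.5 and 336.4 against 36.8 CPM. Whether RNA of sustentacular cells adds to *Cd36* was not tested. The erythroid, immune and cycling lists had 1 gene tested and 0 called each, and the basal and glial genes were too low to test.

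*Cd36* UMIs were found in 173 of 341 member-choosing cells (50.7%) after thinning to 3000 UMIs per cell, and in 216 of 4222 other cells (5.12%). In swap replicates 1 and 2 the shares were 43.5% and 69.4% of member-choosing and 3.25% and 5.49% of other cells. In control replicates 1 and 2 they were 42.9% and 54.8% against 2.69% and 7.43%, in gg8tTA 31.8% against 5.60%, and in tetOP2 12.5% against 5.60%. Median depth before thinning was alike in both kinds of cells, 11240 to 13106.5 UMIs in member-choosing and 11528 to 13019.5 UMIs in other cells. *Cd36* was also found in 25.6% to 55.9% of the cells gated as sustentacular. Of immature cells that chose a member, 1 of 8 held a *Cd36* UMI in control replicate 2 and 0 of 48, 23, 24, 10 and 18 in swap replicates 1 and 2, control replicate 1, tetOP2 and gg8tTA. Of immature cells that chose another OR, 0% to 1.98% did.

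The members differed among themselves in *Cd36*. Of 30 members with at least 5 cells, 17 had *Cd36* in at least 50% of their cells, 9 in none and 4 between. Of 356 other receptors with at least 5 cells, 10 (2.81%) had it in at least 50% and 277 in none. The 10 were Olfr303, Olfr452, Olfr658, Olfr665, Olfr666, Olfr750, Olfr1213, Olfr1312, Olfr1314 and Olfr1316, of which Olfr665 (10 of 10 cells), Olfr1213 (10 of 12) and Olfr666 (9 of 18) had the most such cells. These counts are given without a test, since the split by *Cd36* was made after its values were seen.
Among the members, *Cd36* was found in 20 of 22 cells that chose Olfr769, 15 of 19 for Olfr821, 11 of 21 for Olfr813, 9 of 13 for Olfr812, 10 of 11 for Olfr772, 7 of 11 for Olfr810, 8 of 10 for Olfr780 and 8 of 8 for Olfr818. It was found in 0 of 21 cells that chose Olfr827, 0 of 15 for Olfr820, 0 of 9 for Olfr825 and 0 of 8 for Olfr796. Olfr827 cells carried other genes of the set, with *Olig1* in 17, *Tppp3* in 16, *Cd55* in 10 and *Tshz1* in 2 of 21 cells. Olfr820 cells held *Cidea* in 6 and *Mslnl* in 7 of 15 cells, both of which were lower in member-choosing cells as a whole.

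The order of the genes on chromosome 10 is the order of their numbers, and *Cd36* followed it in blocks. In the 265 cells that chose one of the 49 members Olfr768 to Olfr822, 171 (64.5%) held *Cd36* and 234 (88.3%) *Tshz1*, and *Cd36* was seen for 36 of the 44 members chosen. In the 59 cells that chose one of the 7 members Olfr823 to Olfr829, which lie at the far end of the cluster and on chromosome 9, 1 cell (1.69%) held *Cd36* and 7 (11.9%) held *Tshz1*. In the 17 cells of the 5 members Olfr763 to Olfr767, 1 (5.88%) held *Cd36* and 3 *Tshz1*. Within the middle block Olfr796 and Olfr820 were the exceptions with at least 5 cells and no *Cd36*. The blocks were drawn after these values were seen.

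**Figure D3:**
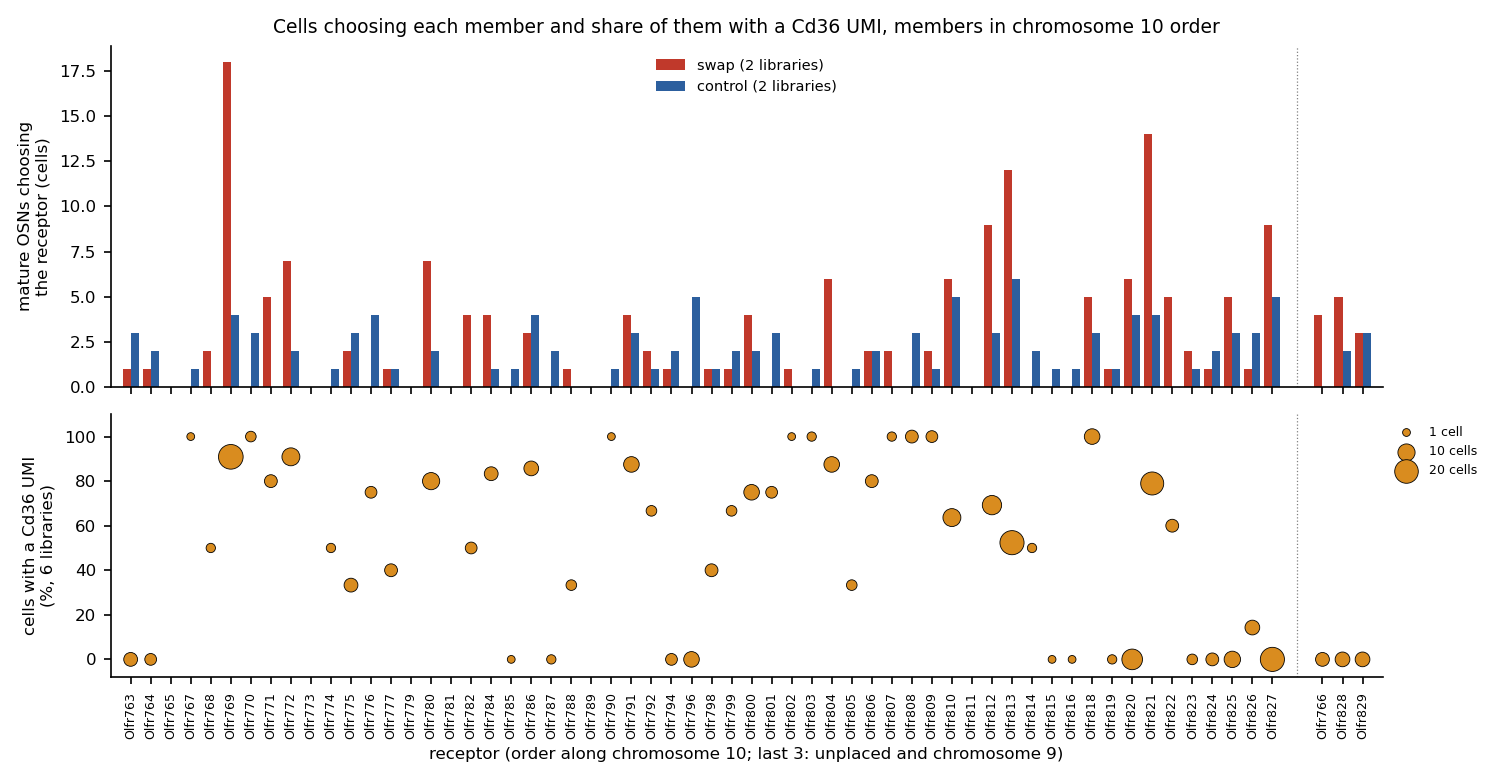
Top, number of mature OSNs that chose each receptor (y axis) in the pooled swap and the pooled control libraries (bars). Bottom, percent of its choosing cells over 6 libraries with a Cd36 UMI (y axis), with dot size for the number of cells. Receptors (x axis) are in chromosome 10 order, followed by Olfr766, Olfr828 and Olfr829; cells with Cd36 fill the middle of the cluster and are nearly absent at both ends.

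Members with *Cd36* in at least 50% of their cells were more alike in coding sequence by median, with overlapping ranges. Members without *Cd36* were about as far from each other as from those with it. Among the 17 members with *Cd36* in at least 50% of their cells the 136 pairs had a median nucleotide identity of 68.3% (63.6% to 93.5%). Among the 8 with a coding sequence and no *Cd36* cell the 28 pairs had a median of 55.8% (52.3% to 70.7%), and the 136 pairs of 1 of each kind had a median of 55.5% (52.1% to 67.9%). Over the 936 coding bases of Olfr769 and the bases aligned to them, 11 positions held 1 base in all 17 *Cd36* receptors and in at most 1 of the 8 others. The 90-base stretch below is shown because it holds 2 of these 11 positions, in capitals. It starts at coding base 288 in Olfr769, Olfr821, Olfr813, Olfr812 and Olfr820, at 330 in Olfr827, at 303 in Olfr825 and at 297 in Olfr796. The first 4 receptors had *Cd36* cells.
Olfr769: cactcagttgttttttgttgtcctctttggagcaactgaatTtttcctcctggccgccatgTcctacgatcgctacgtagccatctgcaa
Olfr821: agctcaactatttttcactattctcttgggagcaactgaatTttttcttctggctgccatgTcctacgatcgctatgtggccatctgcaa
Olfr813: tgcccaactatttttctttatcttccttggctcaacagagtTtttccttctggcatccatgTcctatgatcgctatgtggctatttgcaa
Olfr812: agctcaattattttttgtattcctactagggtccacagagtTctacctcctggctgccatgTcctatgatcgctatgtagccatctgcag
Olfr820: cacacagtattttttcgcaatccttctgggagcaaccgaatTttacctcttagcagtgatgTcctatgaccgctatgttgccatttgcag
Olfr827: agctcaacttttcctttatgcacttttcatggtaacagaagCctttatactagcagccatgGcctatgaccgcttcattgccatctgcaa
Olfr825: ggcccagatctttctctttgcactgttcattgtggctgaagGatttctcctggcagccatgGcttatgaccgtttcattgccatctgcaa
Olfr796: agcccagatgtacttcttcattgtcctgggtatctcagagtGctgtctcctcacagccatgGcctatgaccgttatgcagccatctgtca

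Olfr820, with no *Cd36* in 15 cells, carries at both positions the bases of the *Cd36* receptors, and its nearest member by coding identity is its neighbour Olfr821 (67.9%). These sequences were compared after the *Cd36* values were seen and are a description.

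The larger share of members in swap was seen for cells with and without *Cd36*. Member-choosing cells with a *Cd36* UMI were 4.18% and 7.93% of swap and 2.23% and 2.92% of control cells with a chosen OR, a difference of 3.48 points and a ratio of 2.35. Member-choosing cells without one were 5.42% and 3.49% of swap and 2.98% and 2.40% of control cells, a ratio of 1.66. Neither pair of groups overlapped, and the exact permutation test gave p = 0.3333 for both. Cells that chose another OR and held *Cd36* were 2.94% and 4.86% in swap and 2.55% and 7.03% in control, with control replicates on both sides of the swap values (difference −0.89, exact permutation p = 1).
By number block, Olfr768 to Olfr822 took 7.20% and 9.55% of swap against 3.87% and 4.15% of control cells, here of all cells with a chosen OR. Olfr823 to Olfr829 took 1.84% and 1.47% against 0.942% and 0.847%, and Olfr763 to Olfr767 took 0.459% and 0.315% against 0.314% and 0.254%. The swap libraries lay above both control libraries in the first of these and in Olfr823 to Olfr829. For Olfr763 to Olfr767 swap replicate 2 and control replicate 1 each held 3 cells, and their shares were equal (0.3155%) once cells that chose Olfr17 were left out.

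Position along the dorsoventral axis was scored as the mean of standardized ventral markers minus that of dorsal markers, on cells thinned to 3000 UMIs. Member-choosing cells had mean scores of −0.323 and −0.142 in swap, −0.194 and −0.0697 in control, 0.0270 in tetOP2 and −0.283 in gg8tTA. Cells that chose another OR had −0.0933, −0.101, 0.0454, 0.114, −0.0200 and −0.173 in the same order. Member-choosing cells thus scored lower in 5 of 6 libraries, by 0.126 on average (exact sign-flip permutation p = 0.09375). Without thinning the difference was −0.237 and with the further marker lists −0.683, both at p = 0.03125 in this exact permutation test, the smallest value that 6 libraries allow. The further lists hold *Cd55*, *Cidea* and *Avp*, which were among the genes of smallest adjusted p between these same cells. The value with these lists therefore repeats that comparison and is not separate evidence on position. *Nrp2* and *Ncam2*, ventral genes of the main score, were also called lower between these same cells. Of the 4 dorsal genes of that score 0 were called, so the lower score need not mean more dorsal transcripts. Swap and control member-choosing cells differed by −0.100 in mean score, and the groups overlapped (exact permutation p = 0.6667).

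The members differed in score among themselves. Of 38 members positioned by at least 2 cells of the control and gg8tTA libraries, 22 scored above 0 and 16 at or below. Of the 7 with at least 5 such cells, Olfr808 (−1.51 ± 0.55 SD, n = 5 cells), Olfr810 (−1.22 ± 0.44, n = 5) and Olfr813 (−1.15 ± 0.46, n = 9) were dorsal. Olfr821 (−0.07 ± 0.42, n = 5) and Olfr827 (0.01 ± 0.57, n = 10) lay in the middle, and Olfr796 (0.49 ± 0.20, n = 7) and Olfr820 (0.96 ± 0.47, n = 7) were ventral. *Nqo1*, an oxidoreductase gene of dorsal OSNs, was found in 5 of 5 Olfr808 cells, 10 of 11 Olfr810 cells, 17 of 21 Olfr813 cells and 13 of 13 Olfr812 cells over all libraries, and in none of the Olfr827, Olfr820 and Olfr796 cells. Receptors with *Cd36* in most cells were found from Olfr808 (5 of 5 cells) at −1.51 to Olfr806 (4 of 5 cells) at 1.22. The Olfr806 score rests on 3 cells with an SD of 1.08, and 2 of these 3 held *Cd36*. Olfr820 and Olfr821, which differed in score, are adjacent members of the cluster. The number of mice in a library is not known, so the SDs describe cells and not animals. To compare swap with control, members were placed by the cells of gg8tTA and of the control library of the other number, which placed the chosen member of 39 and 57 swap and 34 and 32 control cells and left the other member-choosing cells out. Of these, 30.8% and 57.9% in swap and 35.3% and 53.1% in control chose a member of positive score, with overlap (exact permutation p = 1). Swap and control libraries of the same number were placed by the same cells, and this permutation takes no account of that pairing. The difference of 0.122 points turned to −13.4 without thinning and to −6.80 with positions from at least 3 cells, where the groups did not overlap (exact permutation p = 0.3333 for both).

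**Figure D4:**
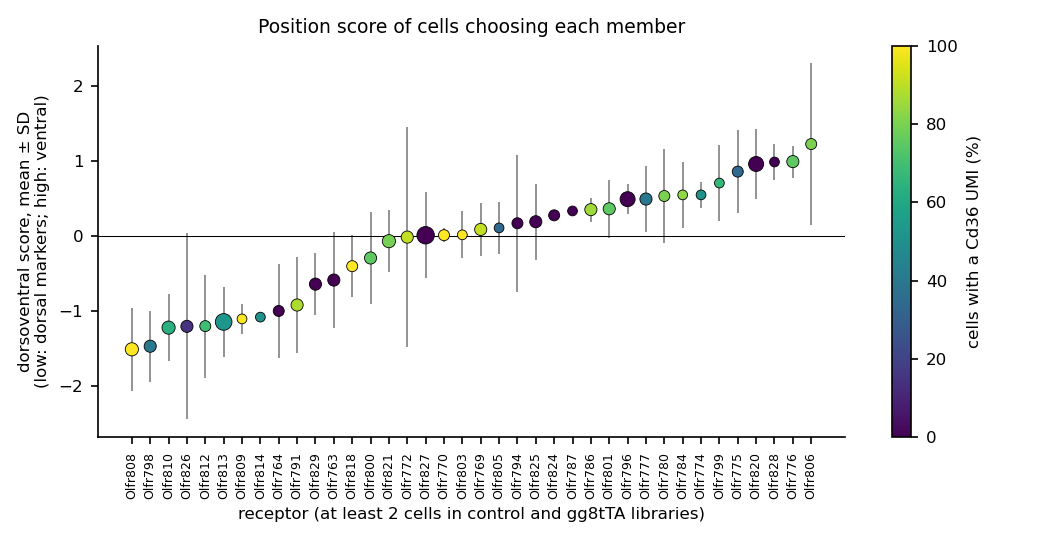
Dorsoventral score (y axis, mean ± SD over cells; low for dorsal, high for ventral markers) of the members with at least 2 cells in the control and gg8tTA libraries (x axis, in order of score), with dot size for the number of cells and colour for the percent of choosing cells with Cd36. Receptors with Cd36 in most of their cells are found from the lowest score (Olfr808, −1.51) to the highest (Olfr806, 1.22, from 3 cells).

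The level of the chosen OR in member-choosing cells did not differ from that in other cells beyond the spread between libraries. After thinning the median was 14 and 27 UMIs in swap, 24 and 22 in control, 20.5 in tetOP2 and 25 in gg8tTA, against 16, 22, 18, 22, 23 and 23 in cells that chose another OR. The mean difference was 1.42 ± 3.56 (SD, n = 6 libraries, exact sign-flip permutation p = 0.4375). Without thinning the medians were 58.5 to 111.5 UMIs for member-choosing and 59 to 103 for other cells. Between swap and control the thinned level differed by −2.5 UMIs with overlap (exact permutation p = 1).

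A second OR of at least 3 UMIs was found in 1, 7, 2, 11, 2 and 1 member-choosing cells of swap replicates 1 and 2, control replicates 1 and 2, tetOP2 and gg8tTA. These were 1.61%, 6.48%, 4.08%, 17.7%, 12.5% and 2.27% of the cells, against 5.92%, 6.41%, 5.10%, 8.18%, 8% and 6.32% of other cells, with no common direction (exact sign-flip permutation p = 0.7188). Of the 24 second receptors in member-choosing cells 11 (45.8%) were members themselves, against 5 of 281 (1.78%) in other cells. These shares are not alike, since most members lie in the same cluster as the chosen member. Second receptors from the cluster of the chosen OR were not counted in other cells. Both second receptors in tetOP2 were Olfr17.
Of the 11, 6 were the pair Olfr776 and Olfr777, which are 108 bp apart on opposite strands and share 66.0% of their coding bases. Another 2 were Olfr770 in cells that chose Olfr772, 33574 bp away. Olfr775 with Olfr777, Olfr808 with Olfr809 and Olfr801 with Olfr800 were seen once each. In most of these cells the second member had 3 to 20 UMIs, and in the Olfr801 cell Olfr800 had 239 against 322 UMIs. Olfr775 and Olfr776 are near-identical, and a stretch at coding bases 408 to 527 of 936 is shown for the cells that held Olfr777 beside either, with the differing bases in capitals, 10 of 37 in all.
Olfr775: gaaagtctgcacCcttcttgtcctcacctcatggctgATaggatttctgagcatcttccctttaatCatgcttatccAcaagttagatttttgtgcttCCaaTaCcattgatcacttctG
Olfr776: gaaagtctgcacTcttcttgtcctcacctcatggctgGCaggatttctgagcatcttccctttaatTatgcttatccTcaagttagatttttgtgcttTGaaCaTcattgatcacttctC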

How the data were processed

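Single-cell libraries were made with 10x reagents and processed by the authors with Cell Ranger, introns included, on mm10; versions and strand settings are not given in the sources used here. The authors deposited UMI counts per gene and barcode, not normalized. Barcodes with 1000 UMIs or more and 500 genes or more entered (57.5% to 100% of barcodes), and 53 to 207 predicted doublets per library, the highest-scoring cells by simulated doublets at 0.8% per 1000 cells, were left out of all values. Receptors with tied top counts were left unassigned. The immature and sustentacular gates used at least 10 UMIs.

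Members, marker lists and tests were chosen with earlier results of these data known. Shares were compared between libraries by exact two-sided permutation (smallest p = 0.3333 for 2 against 2), differences within the 6 libraries by exact sign flips. Sums per library were tested with edgeR 4.0.16 in R 4.3.3 (quasi-likelihood, TMM, low-count filter, Benjamini-Hochberg over all genes tested) and, as an alternative, DESeq2 1.42.0; calls needed an adjusted p below 0.05 and a size above 0.58 on the log2 scale. The choice test used the number of choosing cells as library size. The SE of an edgeR log2 fold change was its size divided by the square root of the quasi-likelihood F statistic. Exact Clopper-Pearson intervals at 95% cover counting error only. Each edgeR test was run on simulated counts with 200 changed genes, 50 at each fold. The dispersion was fixed at 0.05 for all genes. Of those at 4-fold it recovered 46 for UMIs per gene (13534 genes), 2 for choosing cells (377 receptors) and 50 for member-choosing against other cells (10053 genes). The dispersion was not estimated from these libraries, in which the test of UMIs per gene called 0 of 13333 genes. The recovered numbers therefore do not show how often such a change would be found here.

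Genes named one by one were the 12 members with most choosing cells (ties included), called members, those with the lowest and highest position among members with at least 5 cells in the control and gg8tTA libraries, near-identical pairs, the fixed marker lists, and, for member-choosing cells, the 8 genes of smallest adjusted p on either side. Near identity, planned on proteins, was taken from GENCODE coding sequences at 95%. Promoter windows were not used, since 56 of 60 RefSeq entries hold no more than the coding sequence. Position scores were standardized on the control and gg8tTA libraries. The alternatives tried covered normalization, filters, DESeq2, the replicate block, gates, thinning, doublets, marker lists and leaving out each library. A part of the genotype labels is not reported here.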

Additional observations from a re-analysis of the deposited data

Results flagged for a closer look

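Some differences between member-choosing and other cells went one way in all libraries of a group and the opposite way in another, and these contrasts between groups were not tested. The dorsoventral score of member-choosing cells was higher than that of other cells by 0.0470 in tetOP2 and lower in the swap, control and gg8tTA libraries. The level of the chosen receptor was higher in member-choosing cells by 2 UMIs in gg8tTA and lower by 2.5 UMIs in tetOP2. The percent of cells with a second receptor was higher in member-choosing cells by 4.5 points in tetOP2, where both second receptors were Olfr17, and lower in gg8tTA. The tetOP2 values rest on 16 member-choosing cells of 1 library.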

How the results depend on the processing

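Of 145 values of main results under alternative settings, 120 moved by less than the spread between libraries or stayed within 1.5 times the count reported, 23 moved and 2 passed the threshold in place of missing it; of 196 values for single genes, 192 were unchanged in call and direction and 4, all of Olfr769, newly passed. No value that had passed a test changed sign; the differences in ventral member share, in the level between swap and control and in other cells with *Cd36*, which had not passed one, did. The difference in member share (5.22 points) was 3.70 without the 3 most chosen members and 4.30 to 6.14 when 1 library was left out. The position difference from other cells was −0.237 without thinning, −0.683 with the further lists (which hold *Cd55*, *Cidea* and *Avp*) and −0.161 to −0.103 without 1 library. The difference in ventral member share (0.122 points) was −0.887 with *Omp* at 3 UMIs or more, −0.412 with the chosen receptor at 10 UMIs or more, −13.4 without thinning, −6.65 with doublets kept, −6.80 with positions from at least 3 cells and −13.4 to 13.7 without 1 library.

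DESeq2 called 6 members higher and 2 lower in UMIs, where edgeR called 0. All of these but Olfr769 had UMIs in 1 group alone. Without 1 library edgeR called 0 to 11 higher and 0 to 7 lower: 6 and 6 without control replicate 1 (61 and 175 of 731 OR genes), 11 and 7 without control replicate 2 (74 and 187 of 712) and 0 without either swap replicate, the lone library being assumed to vary like the others. In choosing cells 1 member, Olfr769, was called higher with at least 8 cells per receptor, with *Omp* at 3 UMIs or more and with the replicate block (0 to 1 higher and 0 lower without 1 library). Without a filter 343 genes were lower in member-choosing cells; without 1 library 97 to 238 were higher (97 without swap replicate 1) and 152 to 217 lower. Other ranges without 1 library were −8.50 to −3.72 for the number of different members, 1.61 to 5.35 points for member cells with *Cd36*, 0.7999 to 2.73 for those without, −3.13 to 1.35 for other cells with *Cd36*, −0.191 to −0.0102 for position between swap and control, −9 to 4 UMIs for the level between swap and control and 0.5 to 2.2 UMIs against other receptors. The cause of these changes was not tested. With the replicate number as a block the UMI test called 0 members, with 12 higher and 3 lower at an unadjusted p below 0.05 (63 and 128 of 572 OR genes). In the labels, replicates of swap and control share only a number. Their deviations from the group means correlated at 0.318 over 13333 genes. Summed sustentacular markers of swap and control were 802.3 and 59.2 CPM in replicates 1 and 3006 and 3544 CPM in replicates 2. Whether libraries of the same number share a batch was not tested, and the main tests of 2 against 2 libraries do not use such a pairing.

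The design limits the tests: 2 libraries against 2 cannot reach an exact p below 0.3333. At a dispersion fixed beforehand, the edgeR test of choosing cells recovered 2 of 50 receptors simulated at 4-fold and 16 of 50 at 16-fold. Members chosen by few cells have positions and *Cd36* shares that rest on those cells.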
